A study of Rattus norvegicus with 38 samples.

Results

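DNA methylation was examined at the differentially methylated regions (DMRs) assigned to Krt42, Itga6, Mrc2 and Hr, genes known for their roles in epithelial or stromal cells. The members were the DMRs that the study's gene annotation gives to these genes. That annotation covers 594 of the 3417 DMRs, so further DMRs of these genes may be among the rest. Each gene had 1 DMR in it, and these 4 were the members. The question was whether they varied together between swabs. The DMRs of Krt42, Itga6 and Mrc2 moved in 1 direction, all higher or all lower on postnatal day 10 (P10) than on day 2 (P2), in 17 of 19 pups, and their changes correlated over all pups. This was not particular to them. Of the other 3353 DMRs, 6.38% to 15.1% had a higher r with 1 of the 3 than another of the 3 had. An r above 0.5 in size, of either sign, was found for 61.8% to 65.0% with each. No pair passed once the first principal component of the other DMRs was removed. The changes of Krt42, Itga6 and Mrc2 had an r of 0.81 to 0.90 in size with it, so its removal took out most of their variation. The lack of a pass therefore cannot decide whether they share more than that component. The study had listed Krt42, Itga6 and Mrc2 together from 1 end of a component fitted on control pups. Among the 9 pups that were no controls, none of the 3 pairs passed the test for the change (r = 0.73, 0.23 and 0.36). This split was chosen after the data were seen, and the difference in r from controls was not called. For levels in these 9 pups, r was 0.53 to 0.96, and 1 pair passed, at P2. In the 17 pups where the other 3 agreed, the Hr DMR moved with them in 9, about as many as it moved against them. The shared movement was upward in some pups and downward in others, and none of the 4 passed the test between P2 and P10 over all pups.

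The samples were buccal swabs of Sprague-Dawley rat pups, which hold a mix of epithelial and white blood cells, taken from each of 19 pups on P2 and P10 and measured by reduced representation bisulfite sequencing (RRBS), a method that reads methylation in CpG-rich fragments. The 10 controls were reared in standard bedded cages, and the other 9 pups, the LBNs, in cages where bedding and nesting material were limited from P2 to P9. Cohort 1 held 6 controls and 5 LBNs and cohort 2 held 4 controls and 4 LBNs, and the cohorts differed in the dates on which they were run. The P2 swab of every pup came before it was assigned to a group.

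Keratins are the intermediate filament proteins of epithelial cells, and Krt42 encodes a type I keratin. Itga6 encodes an integrin alpha chain through which basal epithelial cells hold to laminin, as part of the hemidesmosome. Mrc2 encodes a receptor of the mannose receptor family that takes up collagen and is known from fibroblasts and other stromal cells. Hr, the hairless gene, encodes a nuclear corepressor needed for the hair follicle cycle. Methylation at identity genes differs between cell types, and a swab gives the average over its cells. A changed share of a cell type and changed methylation within cells therefore cannot be told apart in these data. No expression was measured, so the epithelial and white blood cell content of the swabs was not checked against marker transcripts.

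In the rn6 coordinates of the files, the Krt42 DMR lay at chr10:88181423-88181424 and was annotated as intergenic. The Mrc2 DMR, at chr10:93563355-93563356, was in an intron. The Hr DMR, at chr15:52243777-52243778, was also intronic. These 3 were single positions, whereas the Itga6 DMR covered chr3:58461215-58461230 in an intron. The study took Krt42, Itga6 and Mrc2 from its list of DMRs with the most positive weights on the component that separated P2 from P10 among controls. Hr came from its list of DMRs with the most negative weights on the component of the changes that separated LBNs from controls. A shared direction among the controls was thus part of how the first 3 were listed, and a group difference part of how Hr was listed. All 3417 DMRs had been chosen for a difference between P2 and P10 in some of these pups.

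Mean methylation over all DMRs was 51.7% ± 1.52 at P2 and 51.3% ± 1.81 at P10 in cohort 1 (SD, n = 11), and 48.8% ± 1.17 and 42.4% ± 2.42 in cohort 2 (SD, n = 8). In cohort 2 the swab mean was lower at P10 in every pup, with changes from −9.77 to −4.18 percentage points. Read numbers per DMR are not given, so depth is unknown and single values carry no interval.

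The Krt42 DMR had a mean methylation of 48.2% ± 18.1 (SD, n = 19) in the P2 swabs and 41.6% ± 23.6 in the P10 swabs. At P2 it ranged from 22.1% to 81.7% with a median of 42.9%, and at P10 from 9.32% to 82.9% with a median of 38.1%. In the 6 controls of cohort 1 it ran from 35.2% to 75.0% with a median of 42.8% at P2, and from 35.1% to 77.2% with a median of 51.5% at P10. These pups crossed over, since the pups that were highest at P2 were the lowest at P10. Control pup C6 went from 75.0% to 35.1% and C9 from 73.0% to 38.1%, while C4 went from 35.2% to 77.2%. Among the 5 LBNs of cohort 1, LBN2 went from 45.9% to 62.0%, LBN3 from 34.1% to 59.2%, LBN4 from 81.7% to 55.3%, LBN9 from 74.6% to 82.9% and LBN12 from 72.9% to 71.9%. They moved in both directions, and at P10 all were above every pup of cohort 2.

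In cohort 2, the Krt42 DMR of control C1 went from 27.4% to 16.9%, of C5 from 45.4% to 9.32%, of C8 from 42.4% to 13.0% and of C11 from 22.1% to 25%. LBN2 went from 50.5% to 31.3%, LBN4 from 34.1% to 9.39%, LBN9 from 42.9% to 16.0% and LBN11 from 37.7% to 27.8%. All but C11 were lower at P10. At P10 the cohorts did not overlap, with 35.1% to 82.9% in cohort 1 and 9.32% to 31.3% in cohort 2, which held for 5.82% of all DMRs. At P2 they did overlap.

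The Itga6 DMR was less methylated, with means of 23.9% ± 15.0 (SD, n = 19) at P2 and 21.9% ± 14.5 at P10. It ranged from 3.12% to 60.9% with a median of 20.8% at P2, and from 4.17% to 51.9% with a median of 18.2% at P10. Cohort 1 had means of 30.1% ± 16.1 (SD, n = 11) and 30.3% ± 12.8 at the 2 ages, and cohort 2 had 15.5% ± 8.20 (SD, n = 8) and 10.4% ± 6.56. The LBNs of cohort 2 all had lower values at P10, with LBN2 going from 29.5% to 16.8%, LBN4 from 13.2% to 4.17%, LBN9 from 20.2% to 6.15% and LBN11 from 14.1% to 6.00%. The 4 controls of that cohort split, with C5 going from 15.5% to 5.06% and C8 from 20.8% to 11.2%, but C1 from 7.41% to 10.7% and C11 from 3.12% to 22.8%. The cohorts overlapped at both ages.

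The Mrc2 DMR had levels close to those of Krt42, with means of 49.2% ± 15.9 (SD, n = 19) at P2 and 44.4% ± 20.9 at P10. It ranged from 20.4% to 76.3% with a median of 50% at P2, and from 11.4% to 77.6% with a median of 49.4% at P10. Its mean was 55.2% ± 14.0 and 57.1% ± 15.9 in cohort 1 (SD, n = 11), and 41.1% ± 15.6 and 26.8% ± 12.5 in cohort 2 (SD, n = 8). The pups that crossed over at Krt42 crossed over here too, as C6 went from 76.3% to 30.8%, C9 from 53.8% to 28.2% and C4 from 31.4% to 73.4%. In cohort 2, control C5 went from 48.8% to 11.4% and C11 from 20.4% to 52.2%. LBN9 of cohort 2 changed little at Mrc2, from 22.6% to 22.2%, beside −26.9 percentage points at Krt42 and −14.1 at Itga6. In 2 pups the 3 DMRs did not share a direction. LBN12 of cohort 1 changed by −1.01 points at Krt42, 12.9 at Itga6 and 10.1 at Mrc2, and C1 of cohort 2 by −10.4, 3.31 and −9.08.

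The Hr DMR had means of 27.6% ± 12.8 (SD, n = 19) at P2 and 29.3% ± 7.92 at P10. It ranged from 8% to 59.5% with a median of 27.7% at P2, and over the narrower span of 19.4% to 44.2% with a median of 28.1% at P10. In contrast to the other 3 DMRs, its mean was higher in cohort 2 than in cohort 1, with 35.5% ± 12.0 (SD, n = 8) against 21.9% ± 10.6 (SD, n = 11) at P2, and 32.6% ± 5.62 against 27% ± 8.74 at P10. The cohorts overlapped at both ages. The 2 pups with the widest swings were C4 of cohort 1, from 8% to 42.6%, and LBN9 of cohort 2, from 59.5% to 30.1%.

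**Figure D1:**
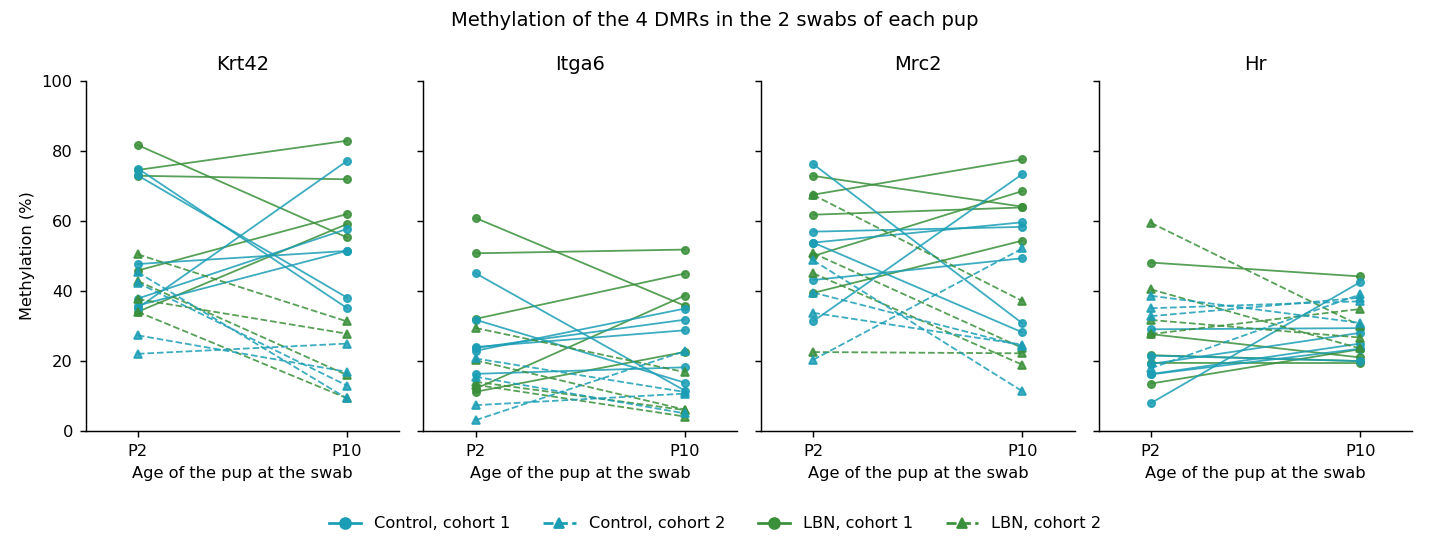
Methylation in percent (vertical axis) of the 4 DMRs in the P2 and P10 swabs of each of 19 pups, with a line for each pup, controls in cyan, LBNs in green, cohort 1 as circles with full lines and cohort 2 as triangles with broken lines. Lines of Krt42, Itga6 and Mrc2 cross in cohort 1 and mostly fall in cohort 2, while Hr stays within 8% to 59.5% with lines in both directions.

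Measured as the difference between the P10 and P2 swabs of a pup, Krt42 and Mrc2 were among the more variable DMRs. The SD of the difference over 19 pups was 23.7 percentage points for Krt42, with 94.0% of DMRs having a smaller SD, and 23.5 points for Mrc2, with 93.4% smaller. It was 15.5 points for Itga6 and 13.5 for Hr, against a median of 15.7 over all DMRs. The mean differences were small beside these spreads, at −6.57 points for Krt42, −4.88 for Mrc2, −2.03 for Itga6 and 1.69 for Hr, with a median of −1.85 over all DMRs.

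The comparison of P10 with P2 asked whether the DMRs changed with age. It was made with limma on the log2 odds of methylation, with the pup as a block, and adjusted over 3417 DMRs, of which 43.7% passed an adjusted p of 0.05. None of the 4 members did, nor did any pass an unadjusted p of 0.05, which 50.4% of all DMRs passed. The difference in log2 odds was −0.53 ± 0.33 (SE) for Krt42, lower in 11 of 19 pups (adjusted p = 0.197). It was −0.34 ± 0.31 for Mrc2, lower in 10 pups (adjusted p = 0.408), and −0.23 ± 0.31 for Itga6, lower in 9 (adjusted p = 0.584). For Hr it was 0.20 ± 0.23, higher in 10 (adjusted p = 0.533). None was called in LBNs alone, where 5.33% of DMRs were (182, and 16 to 198 with 1 pup left out), or in controls alone, where 27.6% were, with limma adjusted p from 0.156 to 0.845 over the 8 tests. At an unadjusted p of 0.05 the count was also 0 in each group, where 26.5% of DMRs passed in LBNs and 40.3% in controls.

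The age differences had other signs in the cohorts taken alone. With limma in cohort 1 alone, the log2 odds differed by 0.14 for Krt42, 0.05 for Itga6 and 0.11 for Mrc2, so that these 3 turned to a positive sign (adjusted p from 0.794 to 0.920). In cohort 2 alone they differed by −1.45 for Krt42, which was then called (limma adjusted p = 0.00878), as were 27.6% of all DMRs, by −0.61 for Itga6 (adjusted p = 0.314) and by −0.95 for Mrc2 (adjusted p = 0.106). In the 4 LBNs of cohort 2, which were lower at P10 at these 3 DMRs without exception, Krt42 (−1.47, limma adjusted p = 0.0312) and Itga6 (−1.41, adjusted p = 0.0230) were called and Mrc2 was not (−1.31, adjusted p = 0.0549), where 16.6% of all DMRs were called. Hr differed by 0.45 in cohort 1 and −0.16 in cohort 2, neither called.

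The difference between cohorts was then tested on δ methylation, the log2 of P10 over P2 in a pup, over the 3354 DMRs with no level of 0. Krt42 was lower in cohort 2, with a δ methylation of 0.10 ± 0.71 in cohort 1 (SD, n = 11), −1.11 ± 0.83 in cohort 2 (SD, n = 8) and a limma difference of −1.22 ± 0.34 (SE, adjusted p = 0.0412). It was below 0 in 7 of 8 pups of cohort 2 and above 0 in 7 of 11 of cohort 1, and values of the cohorts overlapped. It was 1 of 4 members called, where 6.20% of all DMRs were called, and 5.99% lower in cohort 2. With 1 pup left out, the 208 DMRs called became 114 to 432. The differences of Mrc2 (−0.67 ± 0.37, adjusted p = 0.315), Itga6 (−0.62 ± 0.56, adjusted p = 0.583) and Hr (−0.42 ± 0.29, adjusted p = 0.445) had the same sign and were not called. The median difference over all DMRs was −0.16, of the same sign.

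The Krt42 call was near its threshold. It was lost when any of 14 pups was left out, and held without C6, C9 or LBN4 of cohort 1 or C1 or C11 of cohort 2 (adjusted p from 0.0103 to 0.0938 over the 19 fits). Without C11 of cohort 2, Mrc2 was called as well (limma adjusted p = 0.0431). The Krt42 call was also lost on percentage points, on the difference of log odds, and with the swab mean subtracted.

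**Figure D2:**
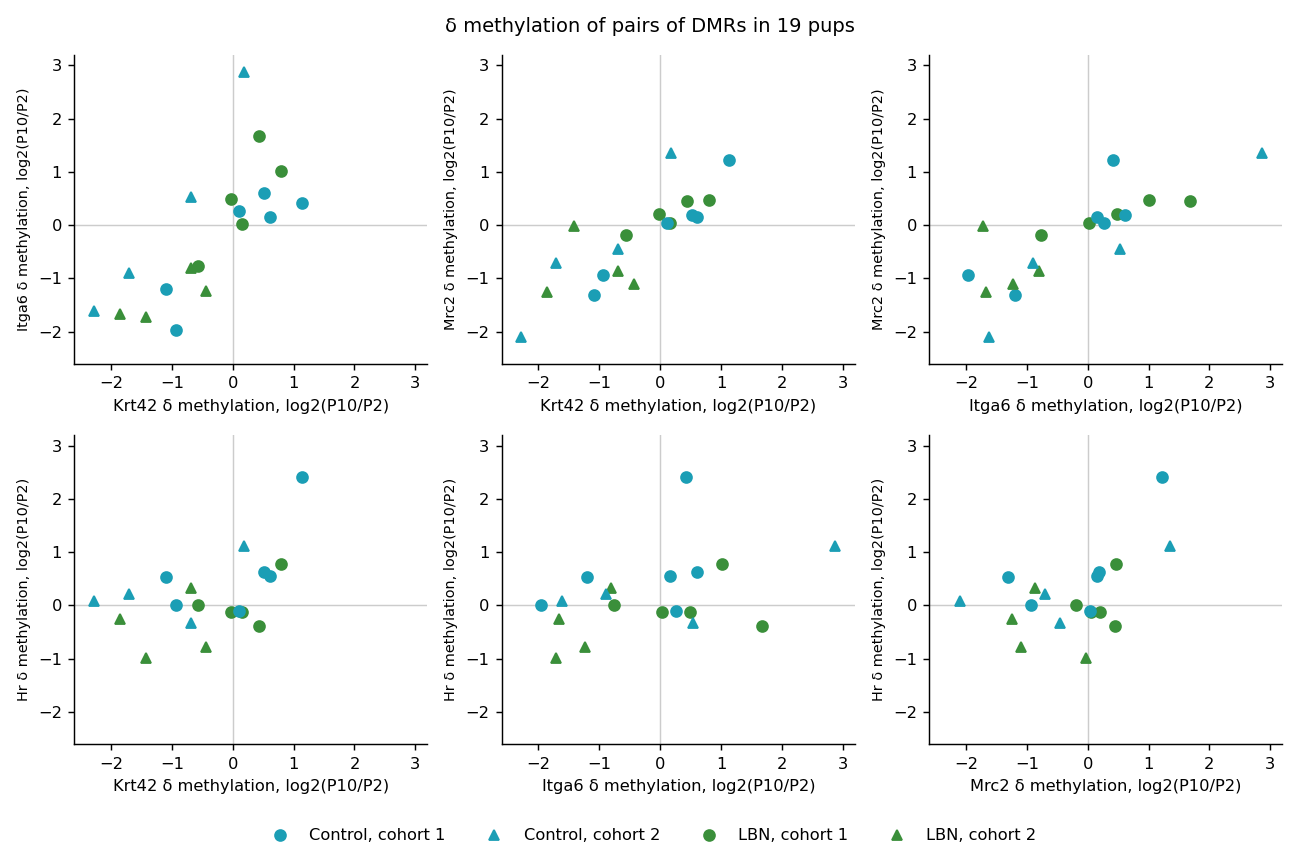
δ methylation, log2(P10/P2), of the members of each of 6 pairs, 1 point a pup (19 pups), controls in cyan, LBNs in green, circles for cohort 1 and triangles for cohort 2, with lines at 0. In the upper row, points of Krt42, Itga6 and Mrc2 lie along a rising diagonal, mostly in the corners where both DMRs rose or both fell. In the lower row, pairs with Hr show a looser cloud with the highest Hr value, 2.41, in control C4 of cohort 1.

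Whether the DMRs varied together was measured by the correlation over 19 pups after centring each DMR within its cohort, so that the cohort difference could not produce it, with 100000 permutations of pups within cohort and two-sided p-values adjusted over 18 relations, 6 pairs in 3 measures. For δ methylation, Pearson's r was 0.81 between Krt42 and Mrc2 (permutation p = 9e-05, adjusted p = 3.3e-04), 0.80 between Itga6 and Mrc2 (permutation p = 3.1e-04, adjusted p = 7.97e-04) and 0.78 between Krt42 and Itga6 (permutation p = 4e-05, adjusted p = 3e-04). Spearman's rho for them was 0.69, 0.74 and 0.74 (permutation p = 0.00235, 0.00071 and 0.00055). Without the 2 pups farthest from the median of the x-axis DMR, r was 0.70, 0.57 and 0.69. Over the 19 pups, 9 had all 3 DMRs lower at P10 and 8 had all 3 higher. By cohort, 7 of 11 pups of cohort 1 had all 3 higher and 3 had all 3 lower, and in cohort 2 it was 1 higher and 6 lower of 8.

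The 3 DMRs also correlated in each swab. The study had listed them by the levels of the controls at both ages, and the change is computed from the same levels. The correlations of levels are therefore no separate support. At P2, r on log2 odds was 0.85 between Krt42 and Itga6 (permutation p = 1e-05, the smallest that the permutations can give), 0.74 between Krt42 and Mrc2 (permutation p = 0.0001) and 0.62 between Itga6 and Mrc2 (permutation p = 0.00645). At P10, r was 0.74, 0.79 and 0.83 for the same pairs (permutation p = 0.00062, 0.00011 and 5e-05). All 3 pairs passed the permutation test after adjustment at both ages (adjusted p from 1.8e-04 to 0.0129), with rho from 0.64 to 0.88, and r was 0.44 to 0.82 without the 2 farthest pups. Without C11 of cohort 2, Itga6 and Mrc2 at P2 no longer passed (r = 0.53, permutation test, adjusted p = 0.0550). Within cohort 1, r for these pairs was 0.79 to 0.94 for δ methylation, and within the 8 pups of cohort 2 it was 0.72 to 0.80 (exact permutation p from 0.0148 to 0.0354), where none passed after adjustment.

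Centred within cohort over all 19 pups, Hr did not pass with any of the other 3 in any measure. For δ methylation its r was 0.42 with Krt42 (permutation p = 0.0803, adjusted p = 0.111), 0.42 with Mrc2 (permutation p = 0.0776, adjusted p = 0.111) and 0.36 with Itga6 (permutation p = 0.132, adjusted p = 0.158), with rho of 0.37, 0.14 and 0.25. Without the 2 pups farthest from the median of Krt42, r with Krt42 was 0.35. It was −0.26 with Mrc2 without the 2 farthest on Hr itself, and 0.03 with Itga6 without the 2 farthest on Itga6. The last 2 values thus rested on the pups left out for each. At P2 its r was 0.47, 0.18 and 0.43, and at P10 0.38, 0.13 and 0.26, in the order Krt42, Mrc2 and Itga6. Leaving out 1 pup brought Krt42 and Hr past the threshold at P2 without LBN4 or C6 of cohort 1 or LBN2 of cohort 2 (r from 0.52 to 0.54), and Hr and Mrc2 in δ methylation without LBN9 of cohort 2 (r = 0.52, permutation test, adjusted p = 0.0497). Krt42 and Hr also passed in δ methylation without the centring (r = 0.50, permutation test, adjusted p = 0.0455) and at P10 when centred within cohort and group (r = 0.60, permutation test, adjusted p = 0.0306).

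No relation between the levels in the first and the second swab was detected. Between P2 and P10 of the same pup, r over 19 pups was −0.10 for Krt42, −0.04 for Itga6, −0.22 for Mrc2 and −0.05 for Hr (permutation p from 0.375 to 0.874, adjusted p = 0.874 for each of the 4 relations), with rho from −0.23 to 0.02. For the first 3, r was −0.28 to 0.15 without the 2 farthest pups, and for Hr it was −0.60, so the Hr value turned on those pups. This relation was chosen after the values were seen.

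The controls and LBNs were also taken apart, a split chosen after the data were seen because the study drew the list of Krt42, Itga6 and Mrc2 from controls. In the 10 controls, r of δ methylation was 0.95 for Krt42 and Mrc2, 0.92 for Krt42 and Itga6 and 0.91 for Itga6 and Mrc2. In the 9 LBNs it was 0.73 for Krt42 and Itga6 (exact permutation p = 0.0212, adjusted p = 0.0976), but 0.23 for Krt42 and Mrc2 (exact permutation p = 0.677) and 0.36 for Itga6 and Mrc2 (exact permutation p = 0.252). The difference between the groups was not called, with 0.72 for Krt42 and Mrc2 (exact permutation p = 0.0136 over 32340 exchanges of group labels within cohort, adjusted p = 0.244 over 18), 0.55 for Itga6 and Mrc2 (exact permutation p = 0.0301, adjusted p = 0.271) and 0.19 for Krt42 and Itga6 (exact permutation p = 0.0507, adjusted p = 0.304). At P2 and P10, r in LBNs was 0.53 to 0.96 for the 3 pairs, of which only Krt42 and Itga6 at P2 passed (exact permutation test, adjusted p = 0.00625).

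**Figure D3:**
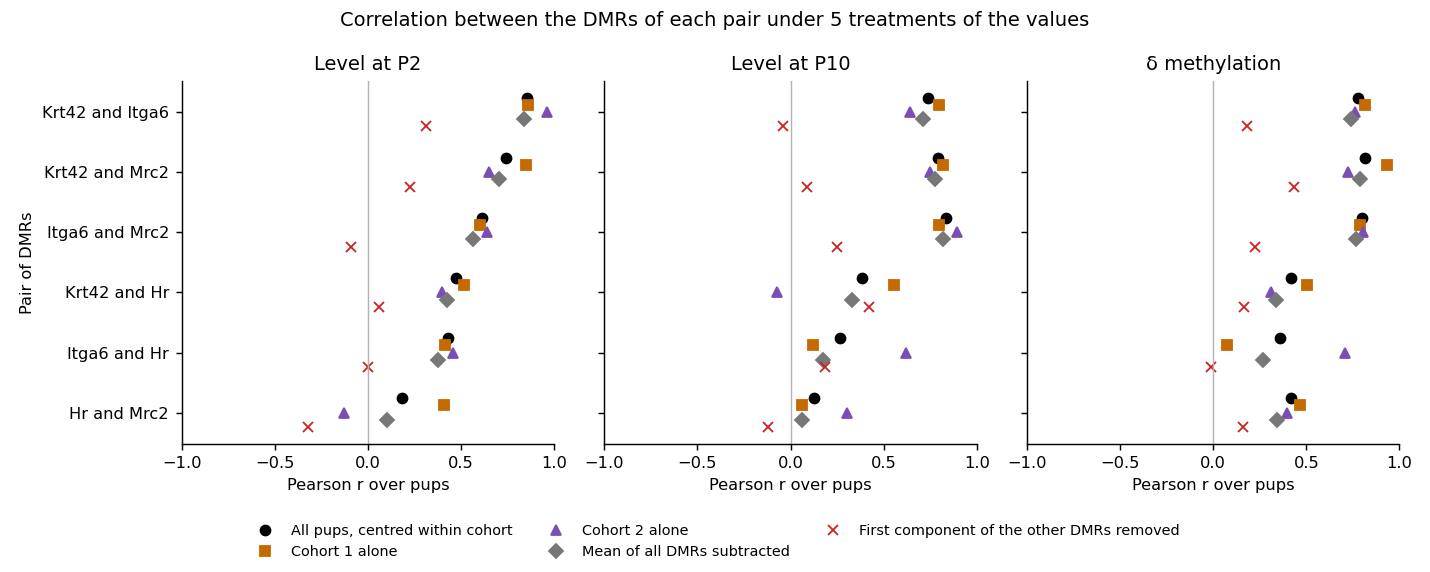
Pearson's r over pups (horizontal axis) for each of 6 pairs of DMRs, for levels at P2, levels at P10 and δ methylation, as black circles for all 19 pups centred within cohort and as other markers for each cohort alone, with the mean of all DMRs subtracted, and with the first component of the other DMRs removed. In the 3 pairs without Hr the black circles lie between 0.62 and 0.85, and the red crosses, with the first component removed, between −0.09 and 0.43.

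This co-variation was not particular to the 3 genes. In δ methylation, 61.8% of the other 3353 DMRs had an r above 0.5 in size with Krt42, 65.0% with Itga6 and 62.7% with Mrc2, against 10.2% with Hr. The median r was near 0 in all 4 (0.03 to 0.11), since about as many DMRs moved against a member as with it. Mrc2 was the 250th most similar DMR to Krt42, with 7.43% of DMRs above it, and Itga6 the 366th. Over the 3 pairs, seen from either gene, 6.38% to 15.1% of DMRs had a higher r than the pair itself. These shares are descriptions, since all DMRs share the same 19 pups and swabs.

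The first principal component of the other DMRs, which stands for the main way in which the swabs differed within cohorts, held 50.4% of the variance of δ methylation, 47.8% at P2 and 42.5% at P10. The r with it, in size, was 0.81 for Krt42, 0.90 for Itga6, 0.83 for Mrc2 and 0.41 for Hr in δ methylation. When it was removed, r between Krt42 and Mrc2 was 0.43 (permutation p = 0.181), between Itga6 and Mrc2 0.23 (permutation p = 0.467) and between Krt42 and Itga6 0.18 (permutation p = 0.573). No pair passed in any measure after that, whereas subtracting the mean of all DMRs left r at 0.79, 0.77 and 0.74 and all 3 pairs called. Removing the component took out most of the variation of the 3 DMRs, so the lack of a pass cannot decide whether they share more than it.

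**Figure D4:**
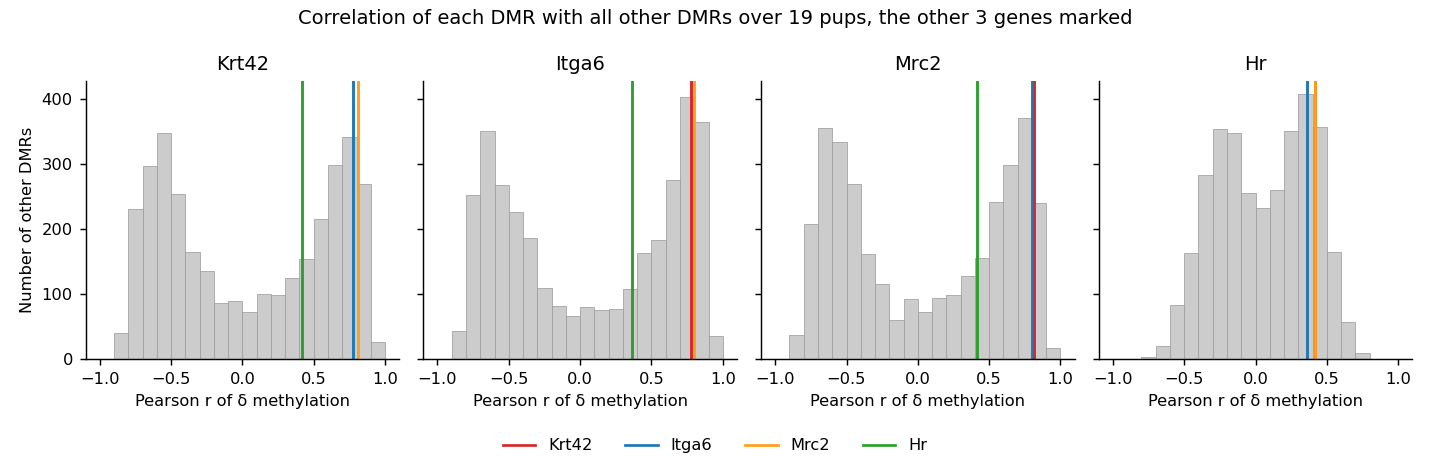
Number of other DMRs (vertical axis) by their Pearson's r of δ methylation with each of the 4 members over 19 pups (horizontal axis, bins of 0.1), with the other 3 members as coloured lines. Krt42, Itga6 and Mrc2 show a peak on each side of 0 and mark each other within the right peak, while Hr has a narrower spread with 10.2% of DMRs beyond 0.5 in size.

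The DMRs most similar to the members in δ methylation were chosen by rank and were mostly without a gene in the annotation used. For Krt42 they lay at chr1:28580142-28580175 (r = 0.95), chr12:7630665-7630712 (r = 0.93) and chr1:80424558-80424559 (r = 0.93). For Itga6 they lay at chr17:4458568-4458569 (r = 0.96), chr10:97107861-97107862 (r = 0.95) and chr18:28638077-28638146 (r = 0.94). For Mrc2 they lay at chr1:15681695-15681728 (r = 0.95), chr4:81164923-81164924 (r = 0.94) and chr1:209565745-209565762 (r = 0.92). These are on other chromosomes than the members, apart from 1 of the 3 for Itga6 that shares chromosome 10 with Krt42 and Mrc2. For Hr the highest r was lower, at 0.77 for chr16:82702803-82702804, 0.77 for chr1:89398202-89398203 and 0.75 for a DMR in an exon of Atxn2, at chr12:40270480-40270481.

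Neighbouring DMRs on the chromosome varied in their likeness to the members. The DMR nearest to that of Krt42, 131290 base pairs away at chr10:88050051-88050133, had an r of 0.93 with it. The next, 133455 base pairs away, had an r of 0.63. The DMR nearest to that of Hr, 22799 base pairs away and assigned to Lgi3, had an r of −0.28, and the nearest of Itga6 and of Mrc2, 222118 and 595523 base pairs away, had −0.36 and 0.28. The next DMR had an r of 0.54 for Hr, 29978 base pairs away. For Itga6 it had −0.54, 293249 base pairs away and assigned to Dlx1, and for Mrc2 −0.67, 953643 base pairs away.

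The comparison of LBNs with controls asked about rearing. In δ methylation, 0 of 3354 DMRs passed limma's adjusted p (0%), members included. At an unadjusted p of 0.05, 3.25% of DMRs passed, and Krt42, Itga6 and Mrc2 did not. Krt42 was at −0.42 ± 1.10 in controls (SD, n = 10) and −0.40 ± 0.86 in LBNs (SD, n = 9), with a difference of 0.07 and a 95% confidence interval of −0.64 to 0.78. Mrc2 differed by 0.03 (−0.74 to 0.81) and Itga6 by −0.22 (−1.39 to 0.95).

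Hr was listed by the study for this contrast, so its values are a description and its count is left unread. In controls it went from 23.5% ± 9.90 at P2 to 31.4% ± 7.51 at P10 (SD, n = 10), higher in 8 of 10, and its δ methylation was 0.51 ± 0.79. In LBNs it went from 32.2% ± 14.7 to 27% ± 8.16 (SD, n = 9), lower in 7 of 9, with a δ methylation of −0.17 ± 0.53. The limma difference in δ methylation was −0.66, with a 95% confidence interval of −1.27 to −0.05, and was not called after adjustment. At P2, before the pups were assigned, LBNs were already 0.59 ± 0.33 (SE) higher in log2 odds, and at P10 they were 0.32 ± 0.26 lower, neither of which was called (limma adjusted p = 0.379 and 0.570). The groups overlapped at both ages.

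At P10, levels of the other 3 DMRs were nominally higher in LBNs, by 0.69 ± 0.36 (SE) in log2 odds for Krt42, 0.52 ± 0.38 for Mrc2 and 0.38 ± 0.39 for Itga6 (limma adjusted p = 0.482, 0.540 and 0.629). At P2, before assignment, the differences were 0.60 ± 0.40, 0.47 ± 0.37 and 0.55 ± 0.44 (adjusted p = 0.420, 0.470 and 0.467). No DMR of the 3417 was called at either age by limma, with 9.86% at P10 and 13.4% at P2 passing an unadjusted p of 0.05, and none of the members did so.

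**Figure D5:**
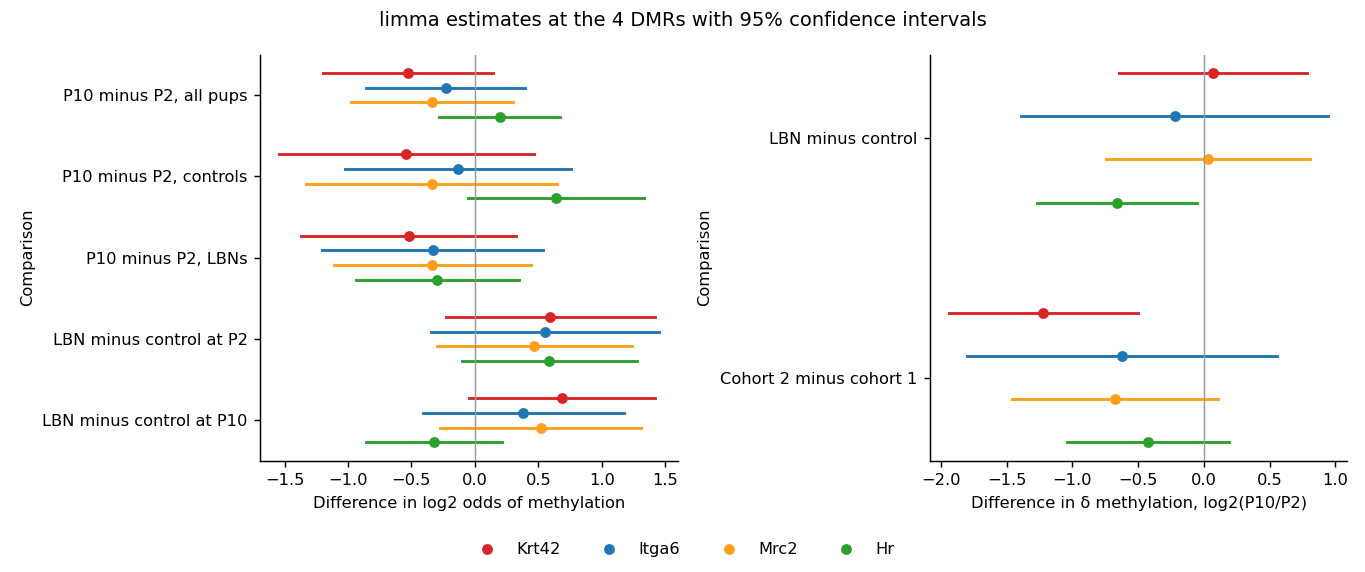
limma estimates (points) with 95% confidence intervals (lines) for the 4 DMRs, as differences in log2 odds of methylation on the left and as differences in δ methylation on the right, 1 colour a gene. The lines of Krt42, Itga6 and Mrc2 cross 0 in every comparison apart from that of Krt42 between cohorts, at −1.22, and those of Hr cross 0 apart from LBN minus control in δ methylation, the contrast for which it was listed.

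Other identity genes were taken from 3 lists, matched through the same gene annotation, so a gene without a DMR here may have one among those not listed. The annotation covers DMRs that the study chose on these samples and so gives no independent evidence of direction. Of 41 epithelial genes, 14 had DMRs beside the members, 17 in all, of which 3 were higher at P10, 7 lower and 7 not called in limma over all pups. Over all DMRs 43.7% were called by that test, 13.7% higher and 30% lower. The extremes by mean change were Calml3, a calmodulin-like protein of epithelium, at −20.7 percentage points, and Tfap2c, a transcription factor of surface ectoderm, at 11.5. Of 28 stromal genes, 13 had 17 DMRs, with 7 higher, 5 lower and 5 not called, running from −19.1 points at Col25a1, a transmembrane collagen, to 16.4 at Efemp2, an elastic fibre protein. Of 27 leukocyte genes, 17 had 18 DMRs, with 3 higher, 9 lower and 6 not called, running from −21.1 at Cxcr4, a chemokine receptor, to 12.0 at Jak3, a kinase of cytokine receptors. The median change was 0.20 points for epithelial, 0.70 for stromal and −5.58 for leukocyte DMRs, against −1.85 over all DMRs.

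The median r of δ methylation with Krt42 was 0.11 for epithelial, −0.43 for stromal and −0.38 for leukocyte DMRs. It was −0.04, −0.38 and −0.38 with Itga6, and 0.26, −0.33 and −0.37 with Mrc2. With Hr all 3 medians lay between −0.11 and 0.05. Over all other DMRs the median was 0.03 with Krt42, 0.11 with Itga6, 0.06 with Mrc2 and 0.07 with Hr. Each list held r of both signs with Krt42. They ran from −0.72 at Pax9 to 0.93 at Dsc3 (epithelial), −0.80 at Snai1 to 0.88 at Ltbp1 (stromal) and −0.75 at S1pr5 to 0.69 at Wipf1 (leukocyte). The DMRs came from the ends of the study's components, so the medians are descriptions. Most epithelial DMRs were on the study's list for age, as were Krt42, Itga6 and Mrc2. Most leukocyte DMRs were only on its list for LBNs against controls. The epithelial and leukocyte medians therefore differ in the source of their DMRs as well as in cell type. Whether cell content took part in these values was not tested.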

How the data were processed

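The authors trimmed RRBS reads with Trim Galore 0.4.3, aligned them to rn6 with Bismark 0.16.3, kept CpGs with more than 10 reads and joined CpGs with a P2 to P10 difference in at least 2 pups of a group into DMRs when they lay within 100 base pairs. The values they deposited are the methylation percent of each DMR in 38 samples, not corrected for cohort. Read counts are not given with them, so depth and its precision are unknown. Positions are printed as deposited, and whether they count from 0 or 1 is not given in the sources used here.

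Levels were tested with limma 3.58.1 in R 4.3.3 on log2((percent + 1)/(100 − percent + 1)), with pups as blocks in the age comparison and cohort as a covariate in the others, and δ methylation on log2(P10/P2) over the 3354 DMRs without a 0 (63 were left out), with Benjamini-Hochberg adjustment at 0.05. The pup pairs its P2 and P10 swabs by the labels, although the deviations of these swabs from their group means had a mean r of −0.0972 over DMRs. Correlations were computed in Python 3.11.15 with 100000 permutations within cohort, and exactly where fewer arrangements exist. p-values treat pups as independent, and dams are not given. The tests were checked on simulated data with independent pups and, for limma, independent DMRs. Those data lack the component that many DMRs share here, so the check does not cover its effect on the counts called. Members, lists and tests were chosen with earlier results of these data known. DMRs named beside the members are the 3 with the highest r to each and the extremes of each list. Alternatives were other scales, filters, variance models, blocks, cohorts and centrings, and each pup left out. Tables' gene assignments were used, and their values were not.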

Additional observations from a re-analysis of the deposited data

Results flagged for a closer look

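Over 48 sets of 4 to 6 pups (a DMR, measure, cohort and group), 3 held a pup far from the others by Dixon's criterion, or 6.25%, where chance alone gives about 1 in 20. The Itga6 DMR at P10 was at 16.8% in LBN2 of cohort 2, with the other 3 LBNs of that cohort at 4.17% to 6.15%. The δ methylation of the Hr DMR was 2.41 in control C4 of cohort 1, with the other controls of that cohort between −0.11 and 0.62. The Hr DMR at P10 was at 44.2% in LBN9 of cohort 1, with the other LBNs there at 19.4% to 23.4%, and this pup was also high at P2, at 48.1%.

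The change of the Krt42 DMR differed between the cohorts, by −1.22 in δ methylation for cohort 2 minus cohort 1 (limma adjusted p = 0.0412, adjusted p from 0.0103 to 0.0938 with 1 pup left out). The mean of all DMRs was also lower at P10 in all 8 pups of cohort 2, and with it subtracted from each swab the difference was −0.99 and no longer called (limma adjusted p = 0.100). The cohorts were run on different dates, and date and cohort cannot be told apart.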

How the results depend on the processing

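Depth is not given, so another coverage minimum could not be tried, and single percentages of these DMRs carry an unknown counting error. In cohort 2 alone 1 member was called for age over all pups, where 27.6% of DMRs were, and 2 in LBNs, where 16.6% were, and the signs for cohort 1 alone in all pups were reversed at Krt42 (0.14), Itga6 (0.049) and Mrc2 (0.11), and for cohort 2 at Hr (−0.16). In LBNs of cohort 1 the age difference reversed at Krt42 (0.24), Itga6 (0.53), Hr (0.0079) and Mrc2 (0.44). In controls it reversed at Krt42 in cohort 1 (0.056) and at Itga6 in cohort 2 (0.19) and with the swab mean subtracted (0.070). For LBNs against controls, δ methylation reversed at Itga6 in cohort 1 (0.77) and on percentage points (0.53) and at Mrc2 in cohort 2 (−0.33), and the P10 level reversed in cohort 2 at Itga6 (−0.61) and Mrc2 (−0.071). No called value was among these. The cohort difference in δ methylation had 0 members called on the difference of log odds (Krt42 adjusted p = 0.142), on percentage points (0.220) and with the swab mean subtracted (0.100), and 0 to 2 with 1 pup left out.

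With 1 pup left out, 0 of 4 members were called in each of the 6 other comparisons. Signs turned within the range for Itga6 in controls (−0.47 to 0.14) and for LBNs against controls in δ methylation at Krt42 (−0.077 to 0.24), Itga6 (−0.46 to 0.21) and Mrc2 (−0.15 to 0.29), and for the r of Hr and Mrc2 at P2 (−0.0085 to 0.41) and P10 (−0.016 to 0.24). The count of pairs past the threshold stayed at 2 to 4 of 6.

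With the first component removed, 0 of 6 pairs passed in each measure, and r reversed for Itga6 and Hr in δ methylation (−0.012), Itga6 and Mrc2 (−0.089) and Hr and Mrc2 (−0.32) at P2, and Krt42 and Itga6 (−0.040) and Hr and Mrc2 (−0.12) at P10. In cohort 2 alone 0 pairs passed in δ methylation and 1 at P2 and 1 at P10, with reversed r for Hr and Mrc2 at P2 (−0.13) and Krt42 and Hr at P10 (−0.070). In LBNs alone, chosen after seeing the data, 0 passed in δ methylation, 1 at P2 and 0 at P10, with reversed r for Hr and Mrc2 in δ methylation (−0.22) and at P2 (−0.31). Krt42 and Hr passed in δ methylation without centring within cohort (r = 0.50) and at P10 centred within cohort and group (r = 0.60). Without centring within cohort, r reversed for Hr and Mrc2 at P2 (−0.12) and P10 (−0.20), Krt42 and Hr (−0.14) and Itga6 and Hr (−0.12) at P10. Without the 2 pups farthest from the median of Hr, r reversed for Hr and Mrc2 in δ methylation (−0.26) and at P10 (−0.17). The cause of these moves was not tested.

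The labels do not say what control and LBN pups of a cohort that share a number have in common. In δ methylation the mean r over DMRs was −0.0235 for 5 such pairs (−0.69 to 0.37) and 0.00262 for 41 others. Of the 5, 2 were most like their own number, and 5 pairs are too few to decide whether the numbers match pups. With the shared number as a replicate block, the group contrast rests on those 5 pairs alone. In that fit, 0 of 4 members and 0 DMRs were called for LBNs against controls in δ methylation, at P10 and at P2. The difference in δ methylation reversed at Krt42 (−0.22) and Mrc2 (−0.49). With no replicate block for the pup, 0 members were called for age and the DMRs called were 1643 against 1493, or 394 against 182 in LBNs.

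Over all DMRs, other settings moved the calls by over 1.5 times, to 880 in cohort 1 and 943 in cohort 2 for age, from 182 to 563 in LBNs of cohort 1 and a like number in cohort 2, from 943 to 24 in controls of cohort 1, from 208 to between 82 and 118 for the cohort difference on the 3 scales above, and from 0 for LBNs against controls to 12 in cohort 2 for δ methylation, 409 in cohort 1 at P10 and 479 in cohort 2 at P2. With 1 pup left out, the 182 calls in LBNs became 86 without LBN2, 70 without LBN3, 28 without LBN9 and 55 without LBN12 of cohort 1, and 16 without LBN2, 17 without LBN9 and 41 without LBN11 of cohort 2. The 208 calls for the cohort difference became 137 without LBN12, 395 without C6 and 356 without C9 of cohort 1, and 120 without LBN4, 119 without LBN11, 114 without C8 and 432 without C11 of cohort 2.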
